A study of Sorghum bicolor with 12 samples.

Results

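The C2H2 zinc finger transcription factors of Sorghum bicolor were followed in seedlings of 2 cultivars placed in sucrose solution. Members were the loci that the study's list of transcription factors assigns to the C2H2 family, each counted once. There were 86 such loci among 1557 transcription factor loci in the part of that list held here, and all 86 had a probe on the array. RNA of entire seedlings, 14 days old, was hybridised to custom Agilent arrays in a single colour. The groups were the sweet cultivar Keller and the grain cultivar BTX623, each at 0, 2 and 6 h in 5% sucrose, with 2 biological replicates a group, 1 array each, and 12 arrays in all. No genotype or treatment other than cultivar and time in sucrose separated the groups. Samples kept without sucrose for 2 or 6 h were not analysed here, so time, handling and sucrose cannot be told apart.

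A C2H2 zinc finger is a short fold in which a pair of cysteines and a pair of histidines hold a zinc ion, and several such fingers together read DNA. Plant genomes hold many of these factors. One large group, often called EPF or ZAT type, has few fingers set far apart and often carries a repression motif, and in rice and Arabidopsis many of its genes respond within hours to cold, drought, salt, wounding or abscisic acid. The INDETERMINATE domain group takes its name from maize INDETERMINATE1, which controls the change to flowering, and the WIP group includes Arabidopsis TRANSPARENT TESTA 1, which is needed for seed coat pigment.

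By the words of their annotation, 7 members were of EPF/ZAT type, 6 belonged to the INDETERMINATE domain group, 5 to the WIP group, 2 were similar to maize RAMOSA1, 2 to transcription factor IIIA, and 1 carried AN1 and C2H2 domains. The other 63 had no described factor in their annotation, and 41 of the 86 were annotated as uncharacterized or predicted proteins. Chromosome 2 held 18 members, chromosome 1 held 15 and chromosome 3 held 13. The other chromosomes held 3 to 10 each.

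The level of a probe is given as the log2 of the processed signal minus the log2 of the array's 75th percentile, so that a level of 0 is a signal at that percentile. Levels of different probes are not compared, since they depend on the probe. Across arrays this percentile lay between 323.3 and 677.1, and 28323 to 34664 of the 41977 probes were well above background on an array. The arrays lay on 3 slides of 4. Slide 1 carried the 3 arrays of Keller replicate 1 and BTX623 0 h replicate 1. Slide 2 carried BTX623 2 h and 6 h of replicate 1 and Keller 0 h and 2 h of replicate 2, and slide 3 carried the rest. Replicate number and slide are therefore partly the same split. The Rubisco small chain locus Sb05g003480 lay between 6.29 and 7.16 on all 12 arrays and the phosphoenolpyruvate carboxylase locus Sb10g021330 between 5.83 and 7.18, both far above the 75th percentile throughout.

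Of the 86 members, 59 were well above background on all 12 arrays, 15 on 1 to 11 arrays and 12 on no array. Single arrays detected between 62 and 71 members. The 12 members never detected all had annotations that name no described factor, and they included both loci of the tandem pair Sb03g029900 and Sb03g029910. The test covered the 69 members detected in both replicates of 1 or more groups, and 17 members were not tested. Among the 69, 10 were not detected on every array. All 7 EPF/ZAT-type, all 6 INDETERMINATE domain and all 5 WIP members were tested, but only 1 of the 2 RAMOSA1-like members. RAMOSA1 of maize controls branching of the inflorescence, and Sb02g024410, the RAMOSA1-like locus that was not tested, was detected on 5 arrays. In Keller alone 3 members had a group with 2 detecting arrays, and in BTX623 alone 1 member had such a group. All of them were also detected on arrays of the other cultivar. The 3 were well above background on 3 to 5 Keller arrays and on 2 or 3 BTX623 arrays. The other member was so on 3 arrays of each cultivar. These counts therefore do not show expression in a single cultivar, and no count over all probes is given beside them.

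The first question was which members changed in sucrose. After 6 h, averaged over both cultivars, 7 of the 69 members fell and 0 rose, at a Benjamini-Hochberg adjusted p under 0.05 in limma over all 31949 probes with a value and a change of at least 2-fold. These were 10.1% and 0% of the C2H2 members, against 5.45% called lower and 3.67% called higher among all probes tested. Of the other transcription factors in the list, 7.64% of 1218 were called lower and 3.28% higher. The corresponding shares were 5.19% and 2.6% of 154 loci in other zinc finger families, and 3.64% and 3.64% of 55 GRAS loci. The median change of the C2H2 members was 0.08 on the log2 scale against 0.02 for all probes, with 37 changes above 0 and 32 below. The called members lay between -3.67 and -1.02, and the 2-fold limit alone places any called member away from that median. The difference between these shares was not tested. In whole seedlings fewer cells that express a gene and less RNA per cell cannot be told apart.

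**Figure D1:**
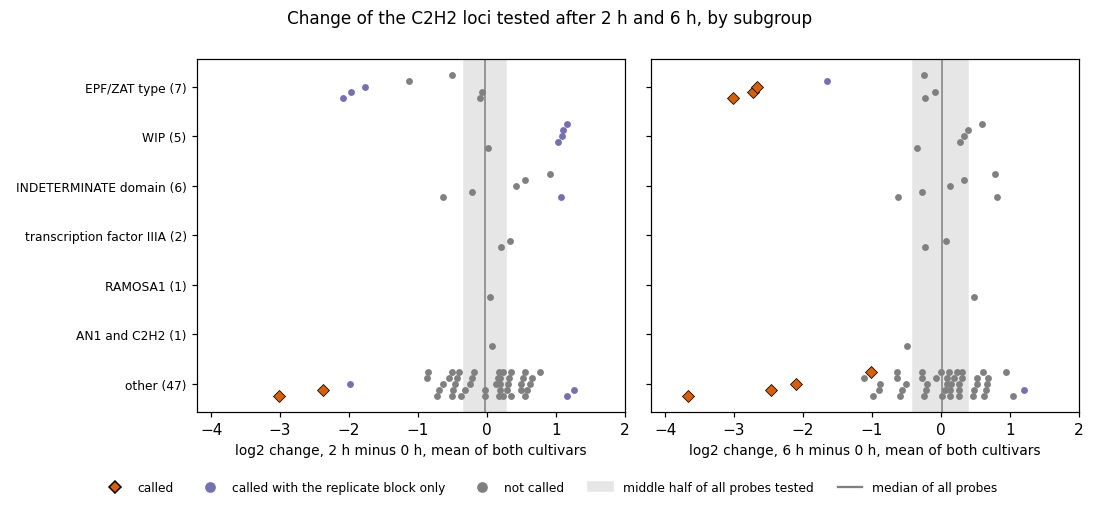
Log2 change at 2 h (left) and 6 h (right) minus 0 h, mean of both cultivars, for each of the 69 C2H2 loci tested, with subgroups on the vertical axis and the number of loci in brackets. Diamonds passed the test, purple points passed it only with the replicate block, grey points did not pass, the grey band is the range between the quartiles of all probes and the line their median. The 7 loci called at 6 h all lie below 0, and 3 of them are of EPF/ZAT type.

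Among the 7 genes that fell, 3 were neighbours on chromosome 1. Sb01g031890 (chromosome 1, 54643616 to 54644588, plus strand), Sb01g031900 (54649172 to 54649882) and Sb01g031920 (54657196 to 54657985) lie within 14370 bp, by the coordinates of the study's gene lists, which name no build. Sb01g031890 and Sb01g031900 are annotated as similar to ZFP36, which in rice acts in antioxidant defence under abscisic acid. Sb01g031920 is annotated only as an uncharacterized protein. All 3 fell at 6 h.

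Sb01g031920 had levels of 3.02 and 3.81 in Keller at 0 h, -0.47 and 0.56 at 2 h, and -0.49 and -0.82 at 6 h, replicate 1 first. In BTX623 it had 2.03 and 3.29 at 0 h, -0.74 and 0.71 at 2 h, and -1.0 and -0.22 at 6 h. The 0 h arrays of both cultivars thus stood above every 2 h and 6 h array. At 6 h the locus fell by 3.67 on the log2 scale over both cultivars, or 12.7-fold (SE 0.43, adjusted p = 0.0017, limma). The log2 change at 6 h was -4.07 in Keller (adjusted p = 0.016, limma) and -3.27 in BTX623 (adjusted p = 0.03), and it was the only member called in either cultivar alone. It made up 1.45% of the members in each cultivar, against 1.54% of all probes called lower at 6 h in Keller and 1.98% in BTX623. Already at 2 h it fell by 3.02 over both cultivars (SE 0.43, adjusted p = 0.012, limma). On the slides that hold both times of a cultivar, the differences at 6 h were -3.52 in Keller on slide 1 and -3.51 in BTX623 on slide 3.

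The call of Sb01g031920 at 6 h over both cultivars held without each of the 12 arrays in turn. The call in Keller was lost without Keller 0 h replicate 1 (adjusted p = 0.08, limma), Keller 0 h replicate 2 (adjusted p = 0.074), Keller 6 h replicate 1 (adjusted p = 0.098) or Keller 6 h replicate 2 (adjusted p = 0.093), and in a fit of the Keller arrays compared only (adjusted p = 0.065). The call in BTX623 was lost without any 1 of the BTX623 0 h and 6 h arrays (adjusted p = 0.054 to 0.17, limma) or of the Keller 6 h arrays (adjusted p = 0.051), without scaling between arrays (adjusted p = 0.17) and in a fit of the BTX623 arrays compared only (adjusted p = 0.15). The call at 2 h was lost without Keller 2 h replicate 1 (adjusted p = 0.061, limma) or BTX623 2 h replicate 1 (adjusted p = 0.05), and without scaling (adjusted p = 0.05).

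Its neighbour Sb01g031900 had levels of 2.55 and 4.04 in Keller at 0 h, 0.42 and 1.30 at 2 h, and 0.11 and 0.15 at 6 h. The BTX623 arrays had 1.38 and 3.97 at 0 h, 0.59 and 1.29 at 2 h, and -0.84 and 0.47 at 6 h. The 0 h arrays of both cultivars were above all later arrays, although BTX623 0 h replicate 1, at 1.38, was near the 2 h arrays. The locus fell by 3.01 at 6 h over both cultivars, or 8.08-fold (SE 0.59, adjusted p = 0.013, limma), and the call held without each array in turn. At 2 h the change was -2.09 (SE 0.59, adjusted p = 0.1).

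Sb01g031890 had levels of -0.80 and 0.44 in Keller at 0 h, -2.20 and -1.76 at 2 h, and -2.56 and -3.65 at 6 h. BTX623 levels were -2.03 and 0.27 at 0 h, -3.32 and -1.92 at 2 h, and -3.70 and -2.91 at 6 h. Groups at 0 h and 6 h did not overlap in either cultivar, but in BTX623 the 0 h and 2 h arrays did. It fell by 2.67 at 6 h over both cultivars (SE 0.57, adjusted p = 0.018, limma). Without BTX623 6 h replicate 1 (adjusted p = 0.064, limma), Keller 0 h replicate 2 (adjusted p = 0.052) or Keller 6 h replicate 2 (adjusted p = 0.059) it was not called. How far the probes of the 3 tandem loci share signal was not tested, since probe sequences were not analysed here.

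**Figure D2:**
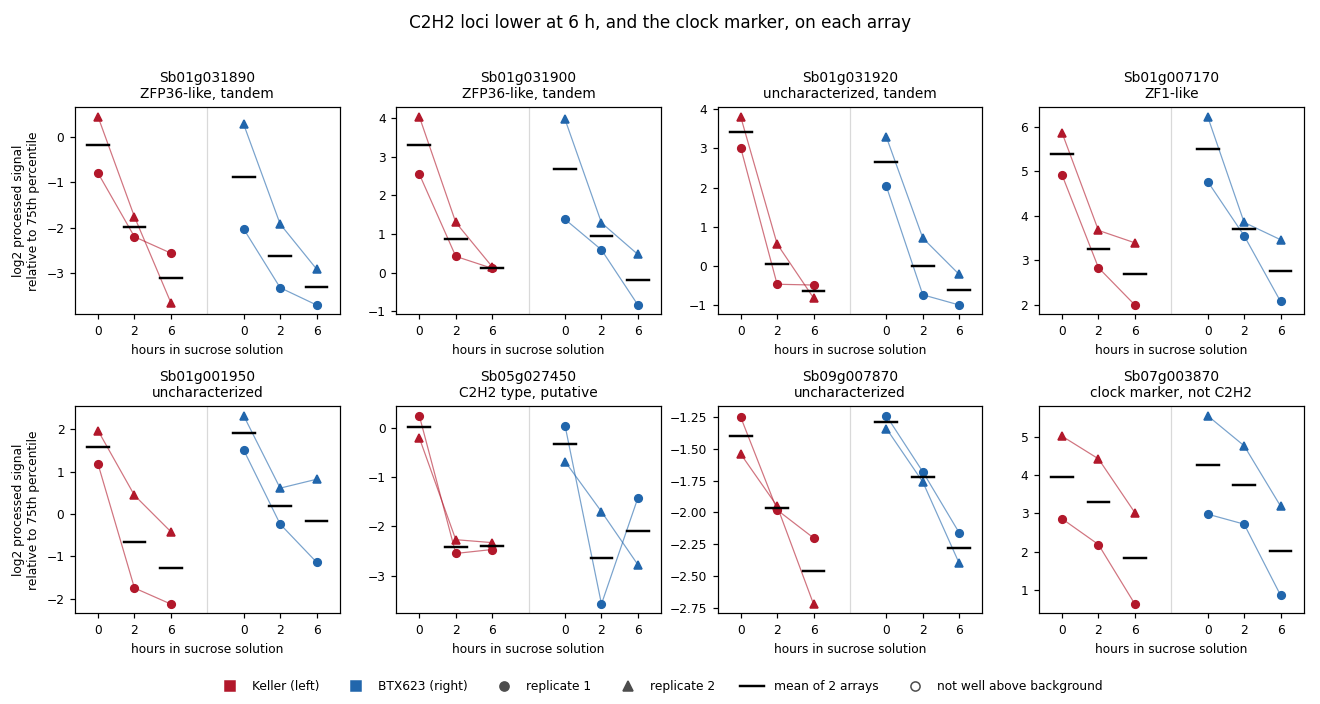
Log2 processed signal relative to the array's 75th percentile (vertical axes, each with its own range) at 0, 2 and 6 h in sucrose for the 7 C2H2 loci called lower at 6 h and the clock locus Sb07g003870, with Keller in red on the left and BTX623 in blue on the right. Circles are replicate 1, triangles replicate 2, thin lines join arrays of the same number and bars are means of 2 arrays. In each C2H2 panel both 6 h arrays of a cultivar lie below both of its 0 h arrays.

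The 4 other loci called lower at 6 h lay elsewhere. Sb01g007170 (chromosome 1, 6098841 to 6100222, plus strand), annotated as similar to the zinc finger transcription factor ZF1, had levels of 4.92 and 5.87 in Keller at 0 h, 2.83 and 3.67 at 2 h, and 1.99 and 3.39 at 6 h. In BTX623 it had 4.77 and 6.23 at 0 h, 3.55 and 3.85 at 2 h, and 2.07 and 3.46 at 6 h. Every 0 h array was above every later array. It fell by 2.72 at 6 h over both cultivars, or 6.58-fold (SE 0.48, adjusted p = 0.0088, limma), with log2 changes of -2.70 in Keller and -2.73 in BTX623. The call held without each array in turn. The within-slide differences at 6 h were -2.93 in Keller on slide 1 and -2.76 in BTX623 on slide 3.

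Sb01g001950 (chromosome 1, 1681383 to 1682184, minus strand), an uncharacterized locus, had levels of 1.18 and 1.97 in Keller at 0 h, -1.75 and 0.44 at 2 h, and -2.13 and -0.42 at 6 h. The BTX623 arrays had 1.51 and 2.32 at 0 h, -0.24 and 0.61 at 2 h, and -1.14 and 0.82 at 6 h. Arrays at 0 h were above all later arrays, and in each of the 6 groups replicate 2 was above replicate 1 by 0.79 to 2.19. It fell by 2.46 at 6 h over both cultivars (SE 0.63, adjusted p = 0.035, limma). It held without only 4 of the 12 arrays, fewest of the 7, namely Keller 2 h replicates 1 and 2, Keller 6 h replicate 2 and BTX623 6 h replicate 2. Without any other array the adjusted p was 0.052 to 0.11 (limma), and without scaling between arrays it was 0.12.

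Sb05g027450 (chromosome 5, 61814780 to 61815331, minus strand), weakly similar to a putative C2H2 protein, had levels of 0.25 and -0.20 in Keller at 0 h, -2.55 and -2.27 at 2 h, and -2.47 and -2.33 at 6 h. BTX623 levels were 0.05 and -0.68 at 0 h, -3.58 and -1.70 at 2 h, and -1.42 and -2.78 at 6 h. The low level was already reached at 2 h, and the BTX623 arrays at 2 h and 6 h were spread more widely than those of Keller. It fell by 2.38 at 2 h (SE 0.44, adjusted p = 0.029, limma) and by 2.10 at 6 h (SE 0.44, adjusted p = 0.017). The 2 h call held without only 3 of the 12 arrays (BTX623 2 h replicate 2 and both BTX623 6 h arrays), with an adjusted p of 0.051 to 0.11 (limma) without the others. It was also lost without scaling (adjusted p = 0.075) and with only the arrays compared (adjusted p = 0.059). The 6 h call was lost without Keller 0 h replicate 1 (adjusted p = 0.056, limma), Keller 6 h replicate 1 (adjusted p = 0.056), BTX623 0 h replicate 1 (adjusted p = 0.05) or BTX623 6 h replicate 2 (adjusted p = 0.051).

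The seventh locus changed little but evenly. Sb09g007870 (chromosome 9, 14154005 to 14154715, plus strand) had levels of -1.25 and -1.54 in Keller at 0 h, -1.98 and -1.95 at 2 h, and -2.20 and -2.72 at 6 h. In BTX623 it had -1.24 and -1.34 at 0 h, -1.68 and -1.76 at 2 h, and -2.16 and -2.40 at 6 h. In both cultivars the 3 times did not overlap and the order was 0 h, 2 h, 6 h from high to low. It fell by 1.02 at 6 h over both cultivars, or 2.03-fold (SE 0.18, adjusted p = 0.0086, limma), so close to the 2-fold limit that it dropped below it without Keller 0 h replicate 1 (log2 change -0.95), BTX623 0 h replicate 1 (-1.0), Keller 6 h replicate 2 (-0.89) or BTX623 6 h replicate 2 (-0.96). It did so also with normexp background correction (-0.77), without scaling (-0.91) and with the slide as a block (-0.95). A further 2 members had an adjusted p under 0.05 at 6 h but lay under 2-fold, and they are named after their values were seen. Sb01g040170 had a log2 change of -0.88 (adjusted p = 0.045, limma) and Sb01g043960 one of 0.68 (adjusted p = 0.027).

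A clock gene was lower at 6 h beside these loci. The clock locus Sb07g003870, similar to the rice locus of the CCA1 and LHY type, whose transcript peaks near dawn in other plants, had levels of 2.86 and 5.01 in Keller at 0 h, 2.19 and 4.42 at 2 h, and 0.64 and 3.02 at 6 h. The BTX623 arrays had 2.98 and 5.54 at 0 h, 2.72 and 4.76 at 2 h, and 0.87 and 3.19 at 6 h. Arrays of the same replicate number thus differed at 6 h from 0 h by -2.22 and -1.99 in Keller and by -2.10 and -2.35 in BTX623, and replicate 2 was above replicate 1 by 2.05 to 2.56 in every group. The fitted change at 6 h over both cultivars was -2.17 (SE 0.947, adjusted p = 0.17, limma without the replicate block). That SE includes the offset between the replicates, and no blocked value was taken for this locus. The part of the clock in the changes of the C2H2 members was not tested. The Rubisco locus Sb05g003480 had a change of -0.52 at 6 h over both cultivars (adjusted p = 0.086, limma) and the phosphoenolpyruvate carboxylase locus Sb10g021330 one of -0.74 (adjusted p = 0.053), and their part was not tested either.

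Arrays of the same replicate number deviated together, and a fit with the replicate number as a block raised the number of calls. With the replicate block, 8 members were called lower and 1 higher at 6 h over both cultivars (7.77% and 5.26% of all probes), and all 7 calls above were kept. The additional ones were Sb04g037850, similar to EPF1, which was first described in petunia as a protein binding the promoter of a gene of aromatic amino acid synthesis, and Sb05g027890, a predicted protein. Sb04g037850 had levels of -1.20 and 1.40 in Keller at 0 h, -1.0 and -0.47 at 2 h, and -1.55 and -0.96 at 6 h. BTX623 levels were -1.40 and 1.57 at 0 h, -1.57 and -1.10 at 2 h, and -2.31 and -1.43 at 6 h. In both cultivars replicate 2 alone was high at 0 h, and the change at 6 h was -1.65 (SE 0.71, adjusted p = 0.16 without the block and 0.031 with it, limma). Sb05g027890 had a change of 1.21 (SE 0.39, adjusted p = 0.074 without the block and 0.017 with it, limma). It was not well above background on Keller 0 h replicate 1.

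With the replicate block 6 members were called lower at 6 h in Keller alone (4.63% of all probes) and 5 in BTX623 alone (5.55%). In Keller these were Sb01g001950, Sb01g007170, Sb01g031890, Sb01g031900, Sb01g031920 and Sb09g007870, and in BTX623 the first 5 of them. All 3 tandem loci and the ZF1-like locus were thus called in each cultivar.

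The 7 EPF/ZAT-type members all had negative changes at 6 h, from -3.01 to -0.09 with a median of -1.65, and 3 of them passed the test. Without scaling between arrays 1 of the 7 was above 0. The members that did not pass without the block were Sb04g037850, given above, Sb10g031270, weakly similar to EPF1 (log2 change -0.24), Sb02g038390, weakly similar to ZPT4-4 (-0.23), and Sb08g019490, weakly similar to ZFP2 (-0.09). The group was therefore uneven. Sb08g019490 lay between 0.20 and 0.90 on all 12 arrays. Its times overlapped in Keller, while in BTX623 the 0 h arrays (0.64 and 0.59) lay above the 2 h and 6 h arrays. Sb10g031270 was well above background on 5 of the 12 arrays only.

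After 2 h, averaged over both cultivars, 2 of the 69 members were called lower and 0 higher, compared with 1.46% and 0.97% of all probes. These were Sb01g031920 and Sb05g027450. The median change of the members was 0.13 against -0.02 for all probes. Within a single cultivar, 0 members were called at 2 h by limma, against 0.16% of all probes called in Keller and 0.182% in BTX623. At an unadjusted p under 0.05 there were 12 members in Keller (17.4%, against 9.22% of all probes) and 9 in BTX623 (13%, against 11% of all probes). With the replicate block, 6 members were called lower and 7 higher over both cultivars (3.32% and 2.32% of all probes), 3 lower in Keller (0.879%) and 2 lower in BTX623 (1.41%). The 6 lower over both cultivars were the 3 tandem loci, Sb01g007170, Sb01g001950 and Sb05g027450.

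The 7 members called higher at 2 h with the block included 4 of the 5 WIP loci. WIP1 of melon is known for its part in flower sex, and TRANSPARENT TESTA 1 of Arabidopsis belongs to the same group. Sb02g028220 (chromosome 2, 63420422 to 63424958, plus strand), similar to a transparent testa protein, had levels of -0.86 and -1.69 in Keller at 0 h, 0.19 and -0.19 at 2 h, and -0.38 and -1.70 at 6 h. In BTX623 it had -1.37 and -2.57 at 0 h, -0.65 and -1.20 at 2 h, and -1.10 and -1.99 at 6 h. In each replicate of each cultivar the 2 h array was the highest of the 3. The change at 2 h was 1.16, or 2.23-fold (SE 0.40, adjusted p = 0.17 without the block and 0.0079 with it, limma), and at 6 h it was 0.33 (adjusted p = 0.64).

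Its segmental duplicate Sb07g028010 (chromosome 7, 62963130 to 62965867, minus strand) had levels of -1.03 and -1.96 in Keller at 0 h, -0.12 and -0.53 at 2 h, and -0.64 and -1.86 at 6 h. The BTX623 arrays had -1.58 and -2.65 at 0 h, -0.83 and -1.35 at 2 h, and -1.32 and -2.26 at 6 h. The 2 h array was again the highest in each series. The change was 1.1 at 2 h (SE 0.39, adjusted p = 0.18 without the block and 0.0073 with it, limma) and 0.28 at 6 h. The copies moved alike, and whether their probes share signal was not tested.

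The WIP1-like loci Sb02g020840 and Sb10g024040 followed the same course. Sb02g020840 had levels of -1.89 and -2.74 in Keller at 0 h, -1.06 and -1.25 at 2 h, and -1.35 and -2.20 at 6 h, and in BTX623 -2.11 and -3.31 at 0 h, -1.61 and -2.01 at 2 h, and -1.63 and -2.47 at 6 h. Sb10g024040 had -0.76 and -1.73 in Keller at 0 h, 0.23 and -0.22 at 2 h, and -0.38 and -1.54 at 6 h, and in BTX623 -1.07 and -2.30 at 0 h, -0.55 and -0.97 at 2 h, and -0.69 and -1.66 at 6 h. For both loci the 2 h arrays of a cultivar were above its 0 h arrays, and the 6 h arrays overlapped those of 0 h. Their changes at 2 h were 1.03 (adjusted p = 0.17 without the block and 0.013 with it, limma) and 1.09 (adjusted p = 0.19 and 0.0091). The fifth WIP locus, Sb03g041170, similar to transparent testa 1, lay between 3.62 and 4.20 on all arrays, and its change at 2 h was 0.01.

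Over the 5 WIP loci the changes at 2 h over both cultivars ranged from 0.01 to 1.16 with a median of 1.09. All 5 were above 0 also with normexp correction, with quantile normalization and without scaling. With normexp the median was 0.79. In BTX623 alone 1 of the 5 was below 0 (-0.06). The group rests on annotation words and leaves out Sb01g001950, the segmental duplicate of Sb03g041170, whose change at 2 h was -1.98. At 6 h compared with 2 h none of the 69 members was called by limma (1.19% of all probes called), and 0 were called with the replicate block (4.21% of all probes). At an unadjusted p under 0.05 there were 8 members, or 11.6%, against 16% of all probes. All 5 WIP loci had a negative 6 h minus 2 h change, with a median of -0.69.

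**Figure D3:**
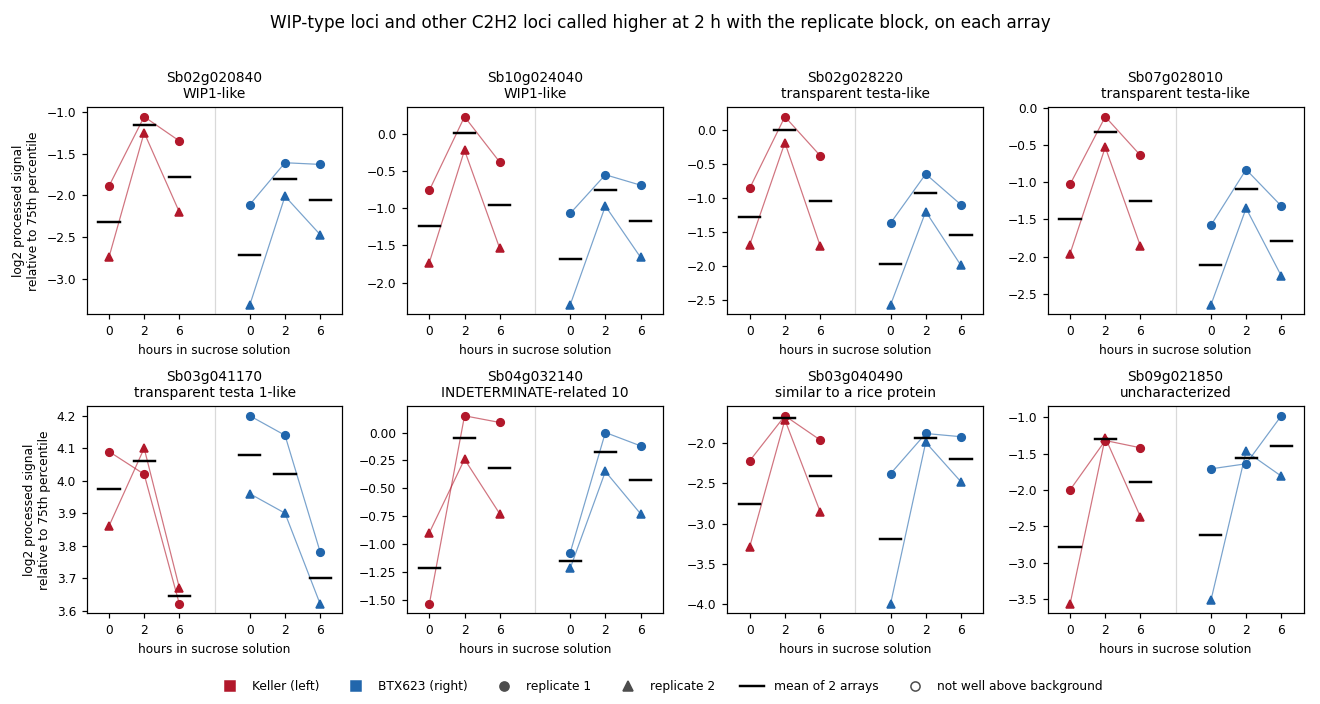
Log2 processed signal relative to the array's 75th percentile (vertical axes, each with its own range) at 0, 2 and 6 h in sucrose for the 5 WIP loci, the INDETERMINATE-related locus Sb04g032140 and the duplicates Sb03g040490 and Sb09g021850, with Keller in red on the left and BTX623 in blue on the right. Circles are replicate 1, triangles replicate 2 and bars means of 2 arrays. In 4 WIP panels the 2 h array is the highest of each series, and Sb03g041170 spans only 3.62 to 4.20.

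The other members called higher at 2 h with the block were Sb04g032140 and a second duplicated pair. Sb04g032140 (chromosome 4, 62146623 to 62155642, minus strand), similar to INDETERMINATE-related protein 10, had levels of -1.54 and -0.90 in Keller at 0 h, 0.15 and -0.24 at 2 h, and 0.09 and -0.73 at 6 h. BTX623 levels were -1.08 and -1.22 at 0 h, a level of 0.00 and -0.35 at 2 h, and -0.12 and -0.73 at 6 h. Every 2 h and 6 h array was above both 0 h arrays of its cultivar. The change was 1.07 at 2 h (SE 0.26, adjusted p = 0.066 without the block and 0.023 with it, limma) and 0.81 at 6 h (adjusted p = 0.071).

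Sb03g040490 (chromosome 3) and Sb09g021850 (chromosome 9), a segmental pair with no described factor in the annotation, had changes of 1.16 (adjusted p = 0.17 without the block and 0.031 with it, limma) and 1.27 (adjusted p = 0.2 and 0.049) at 2 h. Sb03g040490 had levels of -2.22 and -3.29 in Keller at 0 h, -1.66 and -1.71 at 2 h, and -1.96 and -2.85 at 6 h, and in BTX623 -2.38 and -4.00 at 0 h, -1.88 and -1.99 at 2 h, and -1.92 and -2.48 at 6 h. Replicate 2 was the lower one at 0 h in both cultivars, and the replicates lay close together at 2 h. Sb09g021850 had the same form, with -2.00 and -3.57 in Keller at 0 h, -1.32 and -1.28 at 2 h, and -1.42 and -2.37 at 6 h, and in BTX623 -1.71 and -3.52 at 0 h, -1.64 and -1.47 at 2 h, and -0.98 and -1.81 at 6 h.

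In the INDETERMINATE domain group, 4 of the 6 members had positive changes at 2 h and 2 negative ones, from -0.64 to 1.07 with a median of 0.48. None passed the test without the block. With normexp correction 3 of the 6 were above 0 and the median was 0.11. The ID1-like locus Sb01g021480 lay between -3.71 and -2.66 on all 12 arrays, with changes of 0.42 at 2 h and 0.33 at 6 h. The tandem pair similar to INDETERMINATE-related protein 7, Sb02g032400 and Sb02g032410, had changes of -0.22 and -0.64 at 2 h and of 0.13 and -0.27 at 6 h. Sb02g032410 was well above background on only 6 of the 12 arrays, and on both arrays of BTX623 6 h alone, so its changes rest on signals near background. Sb06g025550, similar to INDETERMINATE-related protein 9, had changes of 0.92 at 2 h and 0.79 at 6 h, and Sb07g024550, similar to INDETERMINATE-related protein 1, of 0.55 and -0.62.

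In the remaining groups no member passed the test at 2 h or 6 h, with or without the block. Transcription factor IIIA activates the genes of 5S ribosomal RNA, and the similar loci Sb08g001310 and Sb09g002060 had changes of -0.23 and 0.08 at 6 h. The RAMOSA1-like locus Sb02g024400, detected on 8 arrays, had a change of 0.48. Sb02g036840, a stress-associated protein with AN1 and C2H2 domains, had a change of -0.49, with levels at 6 h of 1.35 and 1.48 in Keller and 1.17 and 1.36 in BTX623, against 1.90 and 1.79 in Keller and 1.88 and 1.73 in BTX623 at 0 h.

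The next question was whether the cultivars responded differently. At 6 h the change had the same sign in Keller and BTX623 for 59 of the 69 members (32 higher and 27 lower in both), and at 2 h for 57 (32 higher and 25 lower in both). Across the 69 members the changes in Keller and BTX623 had a Pearson r of 0.91 at 6 h and 0.85 at 2 h. This is a description across genes, which are not independent replicates, and the points share arrays and slides. The same counts and r were not computed for all probes, so they cannot be read as a trait of the C2H2 family. The difference of the 6 h change between Keller and BTX623 ranged from -1.38 to 1.06 on the log2 scale, and 0 members were called by limma, with 0 at an unadjusted p under 0.05. No probe of the array was called either (0%), with 318 at an unadjusted p under 0.05. For Sb01g031920 the means gave -4.07 in Keller and -3.27 in BTX623, but that difference did not pass the test.

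**Figure D4:**
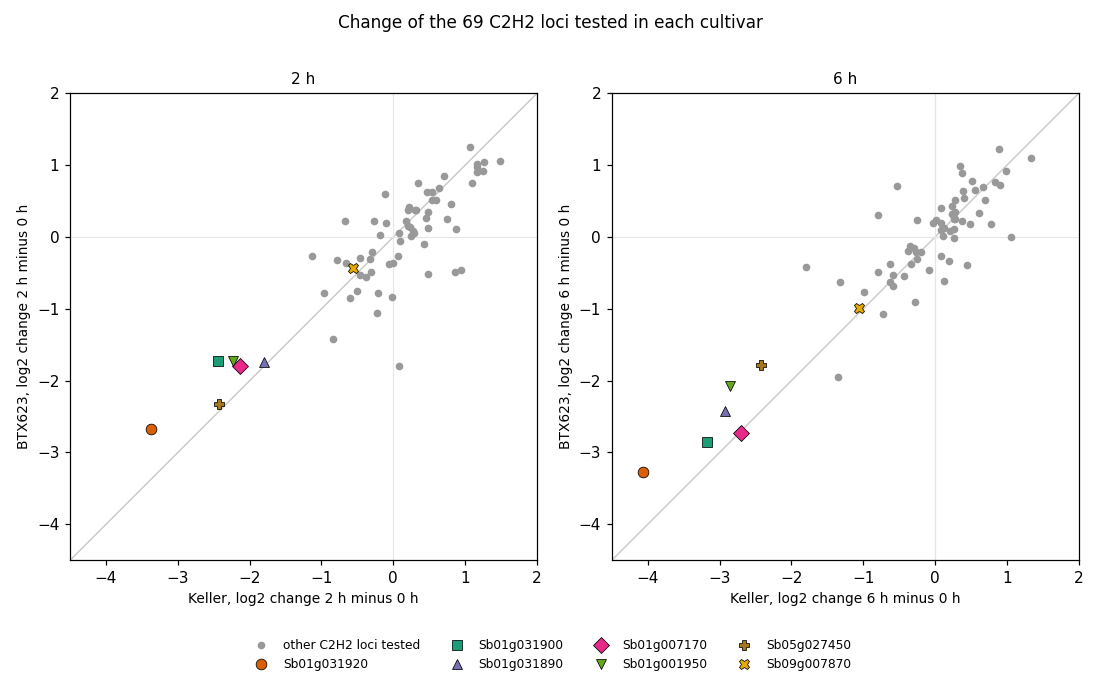
Log2 change minus 0 h in Keller (horizontal axis) and in BTX623 (vertical axis) at 2 h (left) and 6 h (right), 1 point for each of the 69 C2H2 loci tested, with the line of equal change in grey. Coloured symbols mark the 7 loci called lower at 6 h over both cultivars. The points follow the line (r = 0.85 and 0.91 across loci), and Sb01g031920 has the lowest change at both times in both cultivars.

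Last, Keller was compared with BTX623 at the same times. Averaged over the 3 times, 2 of the 69 members were higher in Keller and 0 lower, compared with 1.98% and 3.02% of all probes. The median difference of the members was 0.11 against 0.06 for all probes. At 0 h alone 0 members were called by limma (2.18% of all probes called), with 1 at an unadjusted p under 0.05 (1.45%, against 8.1% of all probes).

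Sb01g034080 (chromosome 1, 57494779 to 57495153, plus strand), weakly similar to an uncharacterized protein, had levels of -0.73 and -2.98 in Keller at 0 h, -1.34 and -3.13 at 2 h, and -1.56 and -3.33 at 6 h. In BTX623 it had -4.64 and -5.67 at 0 h, -5.44 and -5.97 at 2 h, and -5.37 and -6.00 at 6 h. All 6 Keller arrays were above all 6 BTX623 arrays, and replicate 1 was above replicate 2 in every group. It was well above background on all 6 Keller arrays and on 4 of the 6 BTX623 arrays, where replicate 2 at 2 h and at 6 h was not. The difference over all times was 3.34, or 10.1-fold (SE 0.52, adjusted p = 0.0040, limma), and it was called without each array in turn. It was 3.30 at 0 h, 3.47 at 2 h and 3.25 at 6 h. On the slides that hold both cultivars it was 3.91 at 0 h (slide 1), 2.31 at 2 h (slide 2) and 2.68 at 6 h (slide 3). The slide 2 value sets Keller replicate 2 against BTX623 replicate 1, so it crosses the replicate numbers. With the replicate block it was called at each time on its own (adjusted p = 0.0051 at 0 h, 0.0037 at 2 h and 0.0055 at 6 h, limma), where 1.14%, 1.28% and 1.26% of all probes were called higher. With normexp background correction the difference was 1.51 and was not called (adjusted p = 0.06, limma).

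Sb03g039250 (chromosome 3, 66975259 to 66976099, minus strand), similar to a rice protein of no described role in the annotation, had levels of 1.64 and 0.84 in Keller at 0 h, 2.45 and 1.75 at 2 h, and 1.78 and 1.58 at 6 h. The BTX623 arrays had 0.98 and 0.73 at 0 h, -0.13 and 0.88 at 2 h, and 0.04 and 0.89 at 6 h. The cultivars overlapped at 0 h and were apart at 2 h and 6 h. The difference over all times was 1.11 (SE 0.26, adjusted p = 0.034, limma). It was called without only 4 of the 12 arrays (Keller 0 h and 2 h of replicate 2 and BTX623 2 h and 6 h of replicate 2), with an adjusted p of 0.062 to 0.1 without the others. It was also not called with normexp (0.99, under 2-fold) or without scaling (0.93, adjusted p = 0.17). Within slides it was 0.66 at 0 h, 1.88 at 2 h and 0.69 at 6 h. The 2 h value sets Keller replicate 2 (1.75) against BTX623 replicate 1 (-0.13), so it crosses the replicate numbers.

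Its segmental duplicate Sb09g022660 (chromosome 9, 52281210 to 52281839, plus strand) differed the other way. It had levels of -3.08 and -5.63 in Keller and -2.37 and -4.00 in BTX623 at 0 h, -3.07 and -4.03 in Keller and -2.75 and -2.68 in BTX623 at 2 h, and -4.33 and -4.87 in Keller and -2.89 and -2.98 in BTX623 at 6 h. The cultivars overlapped at 0 h only. The difference over all times was -1.22 (SE 0.46, adjusted p = 0.2, limma), and with the replicate block it did not pass either (adjusted p = 0.053), while with the slide as a block it did (adjusted p = 0.013). With the block 3 members were called higher in Keller over all times (2.8% of all probes). The one added was Sb07g023890, an uncharacterized locus with a difference of 1.30 (SE 0.47, adjusted p = 0.17 without the block and 0.046 with it, limma). It was well above background on 6 Keller and 5 BTX623 arrays, but not on BTX623 0 h replicate 1. 

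**Figure D5:**
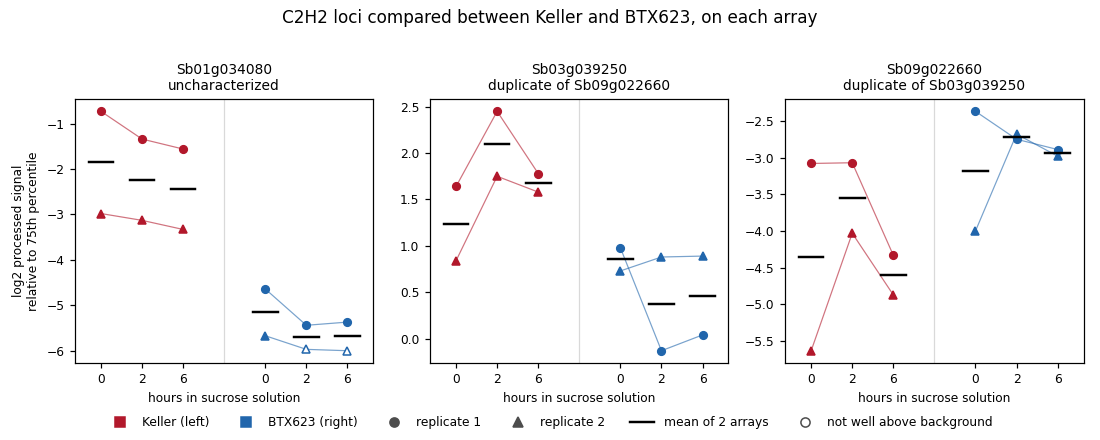
Log2 processed signal relative to the array's 75th percentile (vertical axes, each with its own range) at 0, 2 and 6 h in sucrose for Sb01g034080 and for the segmental duplicates Sb03g039250 and Sb09g022660, with Keller in red on the left and BTX623 in blue on the right. Circles are replicate 1, triangles replicate 2, open symbols arrays not well above background and bars means of 2 arrays. All 6 Keller arrays of Sb01g034080 lie above all 6 BTX623 arrays.

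Among the groups, the loci similar to transcription factor IIIA had differences over all times of -0.51 for Sb08g001310 (adjusted p = 0.13, limma) and -0.66 for Sb09g002060 (adjusted p = 0.15). With normexp these were -0.04 and -0.25, and at 0 h and at 6 h 1 of the 2 loci was then above 0. Sb08g001310 had levels of -4.21 and -4.00 in Keller and -3.48 and -3.78 in BTX623 at 0 h, -3.79 and -3.82 in Keller and -3.26 and -3.26 in BTX623 at 2 h, and -4.60 and -4.13 in Keller and -3.95 and -3.73 in BTX623 at 6 h. On this scale the cultivars did not overlap at any time, yet the difference did not pass the test. The EPF/ZAT-type members had differences from -0.21 to 0.51 and none was called. The transparent testa-like pair Sb02g028220 and Sb07g028010 had differences of 0.71 and 0.64, under 2-fold (adjusted p = 0.31 and 0.35 without the block, 0.017 and 0.019 with it, limma). In the EPF/ZAT group the tandem loci that fell in sucrose differed between Keller and BTX623 over all times by 0.51 for Sb01g031890 and 0.29 for Sb01g031900.

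Duplicated copies were set side by side, since 21 members lay in 5 tandem and 7 segmental pairs, of which both loci were tested in 9. At 6 h both copies were called in 2 of the 9, Sb01g031890 with Sb01g031900 and Sb01g031900 with Sb01g031920. In another pair a called locus stood beside one that was not. Sb01g001950 fell by 2.46, while the change of its segmental duplicate Sb03g041170, of the WIP group, was -0.35 (adjusted p = 0.15, limma). The segmental duplicate of Sb01g031920, Sb02g038070, was well above background on 1 array only and was not tested. The pair Sb02g026230 and Sb07g022700 had changes of 0.24 and -0.22 at 6 h, and Sb02g032400 and Sb07g024550 of 0.13 and -0.62, and none of these 4 loci passed the test.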

How the data were processed

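Total RNA of entire seedlings was labelled with Cy3, hybridised to custom 60-mer arrays and read with Agilent Feature Extraction 10.7.1.1. Deposited intensity values are linear processed signals, background-subtracted by the scanner software but unscaled between arrays, with flags for outlier spots and spots above background. The series' table of the same intensities was not used. Outlier spots were dropped, replicate spots averaged after log2, and the log2 of each array's 75th percentile subtracted. A probe was kept where both replicates of some group were well above background (31950 of 41977). Group means were fitted to the 12 arrays in limma 3.58.1 (R 4.3.3), with a variance trend. Calls needed a Benjamini-Hochberg adjusted p under 0.05 over all probes and a change of at least 2-fold. An adjusted p printed as 0.05 lay above that limit before rounding. With 2 arrays a group, their number limits the precision. The sources call the replicates biological but do not say which plantings they came from, and p-values measure only the spread between these arrays.

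Members, subgroups and lists were chosen with earlier results of these data known. The list of transcription factors was held in part, but is sorted by family and ends well after the C2H2 entries (114, or 86 loci). Named were all members called in any comparison, those whose annotation names a described factor, and both loci of each duplicated pair. Same-numbered arrays correlated in their deviations from group means in all 15 pairs of groups (0.276 to 0.660), so the numbers were taken to pair the arrays, and its blocked result is printed where a call changes. In simulated data on 31950 probes, 100 probes were given a 4-fold change and 100 an 8-fold one. For 6 h minus 0 h over both cultivars limma called 65 and 95 of them, beside 6 unchanged probes. For BTX623 at 6 h alone it called 29 and 64, beside 2 unchanged probes. For Keller minus BTX623 over all times it called 68 and 91, beside 15. The simulated arrays varied independently, unlike the same-numbered arrays here. Alternatives were normexp (offset 50), quantile normalization, no scaling, no filter, blocks for replicate or slide, only the arrays compared, and each array left out. Figures were drawn with matplotlib 3.10.9.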

Additional observations from a re-analysis of the deposited data

How the results depend on the processing

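Counts of C2H2 members called changed by over 1.5 times under the following alternatives. With the replicate block, which takes the pairing of same-numbered arrays into account, the counts were 3 for Keller at 2 h, 6 for Keller at 6 h, 2 for BTX623 at 2 h, 5 for BTX623 at 6 h, 13 for 2 h over both cultivars and 1 for Keller minus BTX623 at 0 h. No call was lost with it. With the slide as a block they were 2, 5, 1, 4, 12 and 1 in the same order, where 0.782%, 6.21%, 0.901%, 6.94%, 5.51% and 2.54% of all probes were called. Without scaling between arrays, which shifted the median change of all probes by up to 0.44 on the log2 scale in size (-0.44 for the difference of the 6 h changes), the counts were 0 for BTX623 at 6 h, 0 for 2 h over both cultivars, 1 for Keller minus BTX623 at 0 h and 1 over all times. With normexp it was 0 over all times. With only the arrays compared it was 0 for Keller at 6 h, 0 for BTX623 at 6 h and 1 for 2 h over both cultivars, where fewer arrays estimate the spread. That fit could not differ for Keller minus BTX623 over all times, since all 12 arrays enter. Quantile normalization and no filter on dim probes left every count within 1.5 times. For settings other than the replicate and slide blocks, no share of all probes called is given beside the counts. Whether a lower count there is particular to the C2H2 members was not tested.

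With each array left out in turn, the counts ranged from 0 to 2 for Keller at 6 h, 0 to 1 for BTX623 at 6 h, 0 to 3 for 2 h over both cultivars, 4 to 7 for 6 h over both cultivars (4 without Keller 0 h replicate 1) and 1 to 2 for Keller minus BTX623 over all times. The 2 h count was 0 without Keller 2 h replicate 1 or BTX623 2 h replicate 1 and 3 without BTX623 0 h replicate 1, and the Keller 6 h count was 2 without either BTX623 0 h array. The lone array left in a group was assumed to vary like the other groups. No share of all probes called is given for these fits either, so their counts cannot be read as a trait of the C2H2 members. Counts stayed at 0 for 2 h in each cultivar, 6 h minus 2 h, the cultivars at 0 h and the difference of the 6 h changes. Between 67 and 69 members were detected. No log2 change of a called member reversed. The causes of these differences were otherwise not tested. Among the members called with or without the replicate block, signals near background limited Sb01g034080 in BTX623, Sb07g023890 in BTX623 at 0 h and Sb05g027890 in Keller at 0 h.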
